A study of Mus musculus with 9 samples.

Results

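The cytochrome P450 genes described here were all genes whose name on the array begins with Cyp followed by a family number, a subfamily letter and a gene number. The rule took 71 of the 27745 gene names on the array, carried by 103 probes of 60 bases. Of these genes, 42 had 1 probe and 29 had several, and the brightest probe on average over the 9 arrays stood for each gene. Cyp51, a cholesterol synthesis enzyme whose name lacks the subfamily letter, fell outside the rule.

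P450 enzymes are haem proteins that insert an oxygen atom into a substrate and draw electrons from a reductase in the endoplasmic reticulum or from ferredoxin in mitochondria. Families Cyp1 to Cyp3 oxidise drugs, dietary compounds, steroids and arachidonic acid, and family Cyp4 hydroxylates fatty acids and leukotrienes, while the remaining families act on sterols, bile acids, steroid hormones, vitamin D and retinoic acid. In the gut wall and the kidney these enzymes meet swallowed chemicals and shape local lipid mediators.

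RNA was measured in 3 groups of epithelial cells sorted from C57BL/6 mice, each with 3 independent replicates and no treatment given in the labels. The kidney group was Epcam-positive, from collagenase, dispase and DNAse digests, with 4 mice pooled per replicate. The MHCIIhi group was small intestinal cells with high Epcam and high MHC class II, and the MHCIIlo group small intestinal cells gated as intermediate for both, released with EDTA, with 3 mice pooled per replicate. Cells positive for CD45, a leukocyte protein, or for Fluorogold, used to leave out dead cells, were gated out in all groups. The sources used here give neither age nor sex.

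Every sample had a single-colour Agilent array to itself. Levels below are log2 processed signals from which the 75th percentile of the same array was subtracted, so that 0 is that percentile, and "measured" means that the scanner software put the probe well above background. On the kidney arrays, 71.2% to 73.2% of spots were measured, on the MHCIIhi arrays 60.9% to 64.7%, and on the MHCIIlo arrays 51% to 57.3%. The 75th percentile itself was 599 to 769 in kidney, 213 to 371 in MHCIIhi and 101 to 185 in MHCIIlo, so dim genes were cut off at a higher relative level in MHCIIlo. The 3 kidney arrays filled a slide of their own, so kidney and slide cannot be told apart. MHCIIhi 3 shared a slide with the 3 MHCIIlo arrays, and MHCIIhi 1 and MHCIIhi 2 lay on another. Epcam, named Tacstd1 on the array, was measured on all 9 arrays, at 3.16, 2.28 and 2.03 in kidney, 4.85, 4.95 and 5.31 in MHCIIhi, and 5.46, 5.38 and 5.06 in MHCIIlo. In these bulk samples, fewer cells of a type and less RNA per cell cannot be told apart.

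One kidney array stood apart from the other two. Xist, the RNA that coats the inactive X chromosome, was at 4.68 on kidney 1 and at -7.41 and -7.09, not measured, on kidney 2 and kidney 3, against 4.70 to 5.09 on the 6 intestinal arrays. The Y-linked genes Ddx3y, Eif2s3y, Uty and Jarid1d were measured on kidney 2 and kidney 3 alone of the 9 arrays. Kidney 2 and kidney 3 thus differed from the intestinal arrays in these X-linked and Y-linked genes as well as in tissue. What goes with either cannot be told apart there. The 13 proximal tubule markers summed, on a linear scale relative to the 75th percentile, to 451 on kidney 1, 130 on kidney 2 and 113 on kidney 3, and without Kap, the brightest, to 153, 52 and 41.2. Lrp2, Cubn, Slc27a2 and Pdzk1 among them were also highest on kidney 1, whereas Slc34a1 was at 2.62, 2.69 and 2.6 and Slc22a12 at 1.98, 1.98 and 1.71. Without Kap, the proximal tubule markers summed to 37.7, 22.3 and 68.3 in MHCIIhi and 76.8, 125 and 117 in MHCIIlo. Kidney 2 and kidney 3 thus lay below every MHCIIlo array in that sum. In kidney, the 7 thick ascending limb and distal tubule markers summed to 647, 684 and 749. The 11 collecting duct markers summed there to 395, 372 and 346. The part of these genes in the P450 levels was not tested, and values that rest on kidney 1 are given with and without it.

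Of the 71 genes, 46 were measured on all 3 kidney arrays, 44 on all 3 MHCIIhi arrays and 41 on all 3 MHCIIlo arrays, and 28 on all 9. The 8 genes Cyp7a1, Cyp8b1, Cyp11b2, Cyp2a12, Cyp2c38, Cyp2c54, Cyp2d13 and Cyp2g1 were measured on no array. Among them, Cyp7a1 and Cyp8b1 are the hepatic bile acid synthesis enzymes and Cyp11b2 makes aldosterone in the adrenal. A probe had to be measured on all 3 arrays of at least 1 group to be tested, and 59 P450 genes passed, among 19473 genes. Cyp1a2, Cyp2e1, Cyp11a1 and Cyp19a1 were measured on 1 or 2 arrays of a group and were not tested. The mean was highest in MHCIIlo for 40 of the 59 tested genes, in kidney for 18 and in MHCIIhi for 1.

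**Figure D1:**
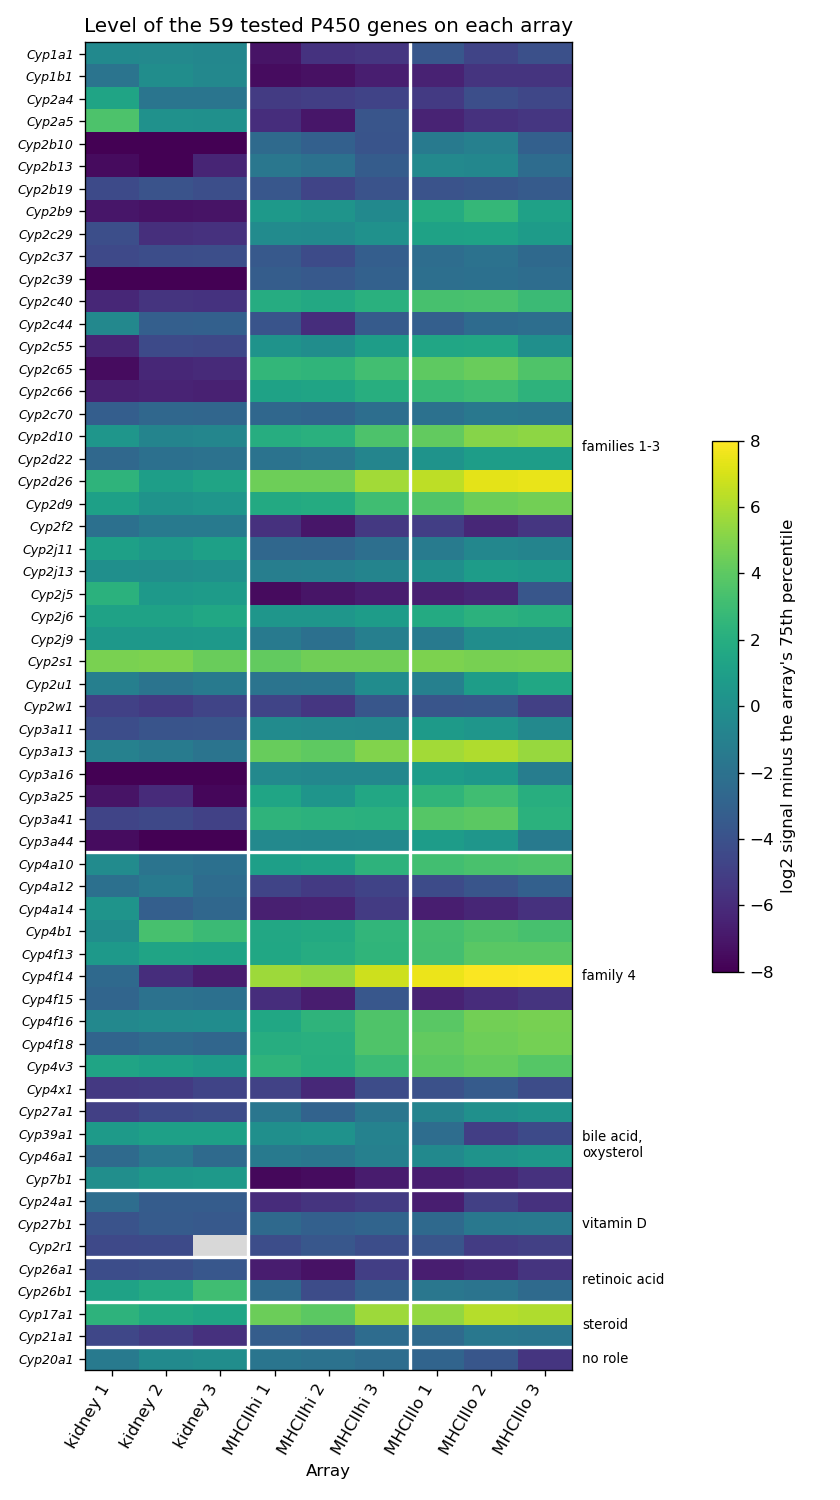
Level of each tested P450 gene (rows, grouped by role) on each array (columns), in log2 units relative to the 75th percentile of that array, with colours ending at -8 and 8 and the grey cell a spot dropped as an outlier. The Cyp3a genes are low in kidney and higher in both intestinal groups, and 18 of the 59 rows are brightest in kidney.

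Differences were tested with limma over all 9 arrays, and calls needed a log2 difference of at least 1 with a p, adjusted by Benjamini and Hochberg over all genes tested, below 0.05. In kidney minus MHCIIhi, 16 P450 genes were called higher, or 27.1% of those tested against 25.6% of all genes, and 26 lower, or 44.1% against 23.0%. In kidney minus MHCIIlo, 17 were called higher, or 28.8% against 29.7% of all genes, and 34 lower, or 57.6% against 28.0%. With normexp, another background correction, this split was 8 higher and 38 lower, beside 2947 higher and 7709 lower among 19468 genes. The median log2 difference of the P450 genes was -0.79 from MHCIIhi and -2.05 from MHCIIlo, beside -0.03 and 0.03 for all genes. In MHCIIhi minus MHCIIlo, 2 were called higher, or 3.39% against 14.9%, and 29 lower, or 49.2% against 16.2%, with a median of -1.22 beside -0.24. Both kidney comparisons use the same kidney arrays. Of the 29 genes, Cyp1b1 and Cyp7b1 were measured in neither intestinal group, so their difference has no level behind it.

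**Figure D2:**
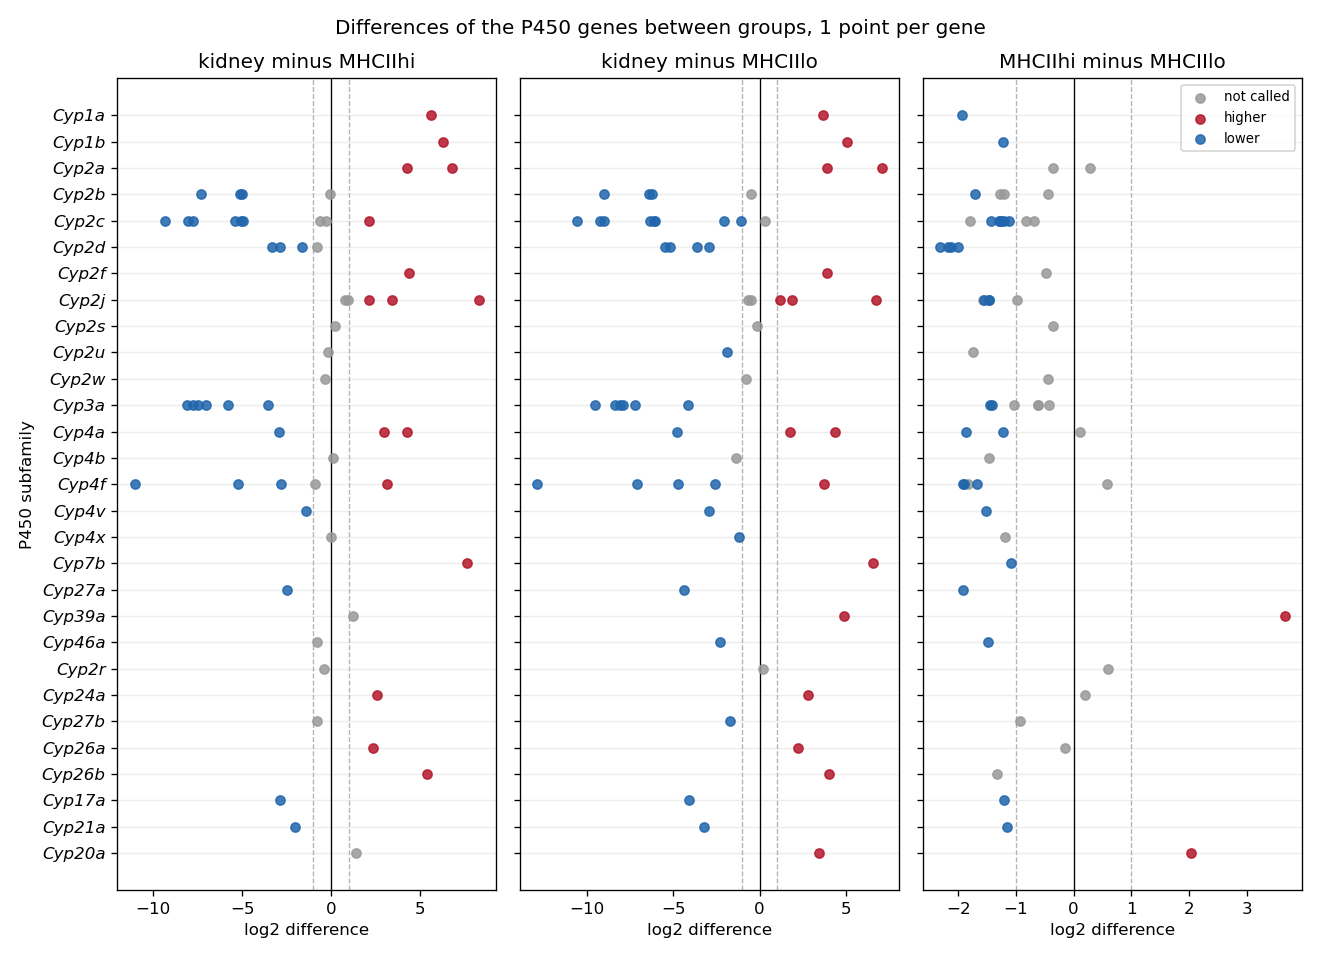
Log2 difference of each tested P450 gene (points) in the 3 comparisons, by subfamily, with genes called higher, called lower or not called in 3 colours and dashed lines at -1 and 1. The horizontal scale of MHCIIhi minus MHCIIlo is narrower than the others. The 6 Cyp3a genes lie left of -1 in both kidney comparisons, and Cyp39a1 lies farthest right in MHCIIhi minus MHCIIlo.

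The Cyp2c genes, which lie together on chromosome 19 and oxidise drugs and arachidonic acid, were largely intestinal. Of 9 tested, 6 were called lower and 1 higher in kidney minus MHCIIhi, and 8 lower and none higher in kidney minus MHCIIlo. Cyp2c65, read at chr19:39158844-39158903 (mm8, plus strand), was at -7.47, -6.21 and -6.12 in kidney, measured on no kidney array, 2.59, 2.46 and 3.14 in MHCIIhi, and 4.00, 4.36 and 3.62 in MHCIIlo. No kidney array came near an intestinal one, and the level was at least 418-fold lower than in MHCIIhi (limma adjusted p = 1.56e-07) and at least 1010-fold lower than in MHCIIlo (adjusted p = 7.09e-08). Such bounds set each array of the dim group at the lowest signal measured on it, or at the gene's own value where that is higher. Here and below, an adjusted p beside a bound belongs to the limma test of the levels as printed, and the bound itself was not tested. Cyp2c66 was at -6.61, -6.40 and -6.55 in kidney, not measured, 1.23, 1.32 and 2.01 in MHCIIhi, and 2.78, 3.05 and 2.37 in MHCIIlo. Its kidney level was at least 181-fold lower than in MHCIIhi (adjusted p = 4.51e-08) and at least 420-fold lower than in MHCIIlo (adjusted p = 2.04e-08). Cyp2c40, an arachidonic acid oxidase, was at -6.21, -5.59 and -5.68 in kidney, measured on 2 of 3 arrays, 1.92, 1.67 and 2.18 in MHCIIhi, and 3.34, 3.39 and 2.89 in MHCIIlo. The kidney arrays of Cyp2c40 all lay below the intestinal ones, with log2 differences of -7.75 ± 0.24 (SE, n = 3 per group, limma adjusted p = 4.16e-08) from MHCIIhi and -9.03 ± 0.24 (adjusted p = 1.54e-08) from MHCIIlo. The Cyp2c gene called higher was Cyp2c44, an epoxygenase that RefSeq names Cyp2c23. It was at -0.53, -3.13 and -3.12 in kidney and -3.86, -5.88 and -3.42 in MHCIIhi, called higher by 2.12 ± 0.81 (limma adjusted p = 0.0453), and not called without kidney 1 (1.26, adjusted p = 0.144), without MHCIIhi 1 (2.38, adjusted p = 0.0588), without MHCIIhi 2 (1.38, adjusted p = 0.147), with normexp (0.52, adjusted p = 0.322), with quantile normalization (1.80, adjusted p = 0.0666), with slide as a random block (2.05, adjusted p = 0.123) or with the arrays of the comparison alone (2.12, adjusted p = 0.0772).

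The Cyp3a genes on chromosome 5, the broad-substrate drug oxidases of liver and gut, were called lower in kidney throughout, in 6 of 6 genes against each intestinal group. Cyp3a25 was at -7.16, -6.02 and -7.70 in kidney, measured on kidney 2 alone, 1.42, 0.35 and 1.57 in MHCIIhi, and 2.49, 3.12 and 2.03 in MHCIIlo. Its log2 difference was -8.07 ± 0.49 from MHCIIhi (limma adjusted p = 1.62e-06) and -9.51 ± 0.49 from MHCIIlo (adjusted p = 5.28e-07), with no overlap. Cyp3a16 was at -8.09, -8.36 and -8.43 in kidney, not measured, -0.50, -0.57 and -0.60 in MHCIIhi, and 0.86, 0.52 and -1.22 in MHCIIlo. It was at least 43-fold lower in kidney than in MHCIIhi (adjusted p = 1.43e-06) and at least 65.6-fold lower than in MHCIIlo (adjusted p = 7.44e-07), or at least 102-fold without MHCIIlo 3. Cyp3a44 was at -7.48, -8.21 and -8.27 in kidney, not measured, -0.50, -0.55 and -0.48 in MHCIIhi, and 0.83, 0.40 and -1.49 in MHCIIlo. Its bound was at least 44.4-fold against MHCIIhi (adjusted p = 3.81e-06) and at least 59.4-fold against MHCIIlo (adjusted p = 2.20e-06), or at least 96.6-fold without MHCIIlo 3. Cyp3a41 was at -4.75, -4.54 and -4.91 in kidney, 2.43, 2.27 and 2.18 in MHCIIhi, and 3.77, 3.96 and 2.23 in MHCIIlo, a log2 difference of -7.03 ± 0.40 (adjusted p = 1.13e-06) from MHCIIhi and -8.06 ± 0.40 (adjusted p = 4.36e-07) from MHCIIlo. MHCIIlo 3 was the lowest MHCIIlo array in these 4 genes. Cyp3a16, Cyp3a41 and Cyp3a44 are close paralogues, and whether each probe read its own transcript alone was not tested.

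The remaining Cyp2 subfamilies divided between the tissues. In Cyp2b, whose members are classical targets of the xenobiotic receptor CAR, 3 of 4 genes were called lower in kidney in both comparisons and measured on no kidney array. Cyp2b9 was at -7.06, -7.25 and -7.14 in kidney, 0.63, 0.26 and -0.39 in MHCIIhi, and 1.87, 2.63 and 1.14 in MHCIIlo. It was at least 70.9-fold lower than in MHCIIhi (limma adjusted p = 6.13e-07) and at least 232-fold lower than in MHCIIlo (adjusted p = 1.68e-07). In Cyp2j the direction was opposite, with 3 of 5 genes called higher in kidney in both comparisons and none lower. The Cyp2j9 call against MHCIIlo (1.15, limma adjusted p = 0.0227) was lost without MHCIIlo 1, kidney 1, kidney 2 or kidney 3. It was also lost with normexp or with slide as a random block. Cyp2j6 and Cyp2j13 were called in neither kidney comparison, at 0.77 and 0.96 from MHCIIhi and -0.70 and -0.51 from MHCIIlo. Cyp2j5, an arachidonic acid epoxygenase known from the renal tubule and read at chr4:96121239-96121298 (mm8, minus strand), was at 2.21, 0.63 and 0.75 in kidney. It was at -7.51, -7.08 and -6.75 in MHCIIhi and at -6.61, -6.31 and -3.71 in MHCIIlo, measured on none of these 6 arrays. The kidney level was at least 75.5-fold higher than in MHCIIhi (adjusted p = 1.48e-05) and at least 35-fold higher than in MHCIIlo (adjusted p = 4.30e-05). The remaining Cyp2j genes were measured in all 3 groups.

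The probes of Cyp2j11 and Cyp2j13 share sequence, which is shown here because it bears on how these levels can be read. The last 30 bases of the Cyp2j11 probe (chr4:95789644-95789703, mm8, minus strand) and the first 30 of the Cyp2j13 probe (chr4:95537632-95548615, mm8, minus strand, across an intron) differ at 2 bases, in capitals.
Cyp2j11: atgggcagtttaagaagaAagaatcCtttc
Cyp2j13: atgggcagtttaagaagaGagaatcTtttc
Cyp2j11 was at 1.09, 0.62 and 1.07 in kidney, -2.63, -2.70 and -2.14 in MHCIIhi, and -1.36, -0.60 and -0.81 in MHCIIlo through this probe. Its other probe was at 0.87, 0.66 and 1.05 in kidney and measured on no intestinal array. Both probes placed kidney above intestine, while the intestinal level of Cyp2j11 rested on the shared probe alone. Likewise, the other 2 probes of Cyp2j13 were measured on no intestinal array. In kidney, 1 of them was measured on all 3 arrays, at -5.24, -0.40 and -0.98, and the other on 2. The mean of the first lay 4.59 above MHCIIhi and 3.95 above MHCIIlo, beside 0.96 and -0.51 through the probe used. The kidney level of Cyp2j13 relative to intestine thus depended on the probe. Whether the probes read each other's transcripts was not tested.

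Cyp2a5, a coumarin hydroxylase, and Cyp2a4, a steroid hydroxylase, were called higher in kidney, and both were highest on kidney 1. Cyp2a5 was at 3.53, 0.07 and 0.04 in kidney, -5.89, -7.05 and -3.77 in MHCIIhi, measured on MHCIIhi 3 alone, and -6.38, -5.72 and -5.48 in MHCIIlo, measured on none. Its log2 difference from MHCIIhi was 6.78 ± 1.04 (limma adjusted p = 0.000446), and 5.62 without kidney 1, 7.36 without kidney 2, 7.37 without kidney 3 and 6.04 without MHCIIhi 2. Without MHCIIhi 3 it was at least 88.5-fold higher in kidney. It was at least 35.4-fold higher in kidney than in MHCIIlo (adjusted p = 0.000273), at least 15.9-fold without kidney 1 and at least 53.2-fold without kidney 3. Cyp2a4 was at 1.36, -1.81 and -1.81 in kidney, -5.25, -5.04 and -4.79 in MHCIIhi, and -5.27, -4.18 and -4.59 in MHCIIlo, and of the intestinal arrays only MHCIIhi 1 measured it. The difference of 4.27 ± 0.76 from MHCIIhi (adjusted p = 0.00109) became 3.22 without kidney 1. Without MHCIIhi 1, Cyp2a4 was at least 16.9-fold higher in kidney than in MHCIIhi. Against MHCIIlo the kidney level was at least 9.05-fold higher (adjusted p = 0.00143), and at least 4.35-fold without kidney 1. Other probes of Cyp2a4 and Cyp2a5 match at 35 of 38 bases, and that Cyp2a4 probe shares a run of 20 bases with the Cyp2a5 probe used. Whether the probes read both transcripts was not tested. Cyp2f2, which activates naphthalene in the airway, was at -2.10, -1.43 and -1.48 in kidney, -5.75, -7.06 and -5.35 in MHCIIhi, and -5.04, -6.25 and -5.44 in MHCIIlo. It was measured on no intestinal array and was at least 10.4-fold higher in kidney than in MHCIIhi (adjusted p = 4.71e-05) and at least 4.8-fold higher than in MHCIIlo (adjusted p = 7.57e-05), a call lost with normexp (0.20, adjusted p = 0.438). In Cyp2d, 3 of 4 genes were called lower in kidney minus MHCIIhi and 4 of 4 in kidney minus MHCIIlo. Cyp2s1, chosen after its values were seen, varied little, at 4.76, 4.87 and 4.33 in kidney, 4.18, 4.53 and 4.56 in MHCIIhi, and 4.87, 4.70 and 4.78 in MHCIIlo, and was called in no comparison.

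The tested Cyp1 genes, Cyp1a1 and Cyp1b1, induced through the Ah receptor and known for oxidising polycyclic aromatic compounds, were called higher in kidney in both comparisons. Cyp1a1 was at -0.40, -0.49 and -0.60 in kidney, -7.14, -5.66 and -5.49 in MHCIIhi, measured on none, and -3.64, -4.73 and -4.09 in MHCIIlo, measured on 1 array. It was at least 23.4-fold higher in kidney than in MHCIIhi (limma adjusted p = 6.82e-06) and higher by 3.66 ± 0.44 on the log2 scale than in MHCIIlo (adjusted p = 7.39e-05). Cyp1b1 was at -1.82, -0.18 and -0.52 in kidney, -7.46, -7.27 and -6.65 in MHCIIhi, and -6.48, -5.62 and -5.62 in MHCIIlo, measured on no intestinal array. Its kidney level was at least 18.4-fold higher than in MHCIIhi (adjusted p = 3.78e-06) and at least 8.53-fold higher than in MHCIIlo (adjusted p = 1.12e-05). The second call was lost with normexp, where the difference of 0.90 (adjusted p = 0.0192) was under the size needed, and a second Cyp1b1 probe was measured on no array. The 5 endothelial markers Pecam1, Cdh5, Kdr, Tek and Emcn, measured in kidney and, but for Tek, on no intestinal array, summed to 20.1 on kidney 1, 46.1 on kidney 2 and 36 on kidney 3, so that both the markers and Cyp1b1 were lowest on kidney 1. Their part in the Cyp1b1 level was not tested.

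In family Cyp4, Cyp4f14, a leukotriene B4 hydroxylase read at chr17:32643687-32643746 (mm8, minus strand), was the P450 gene with the largest difference between the tissues. It was at -2.56, -5.92 and -6.75 in kidney, measured on kidney 1 alone, 5.66, 5.43 and 6.81 in MHCIIhi, and 7.51, 7.89 and 7.98 in MHCIIlo. The log2 difference was -11.04 ± 0.93 from MHCIIhi (limma adjusted p = 1.04e-05) and -12.87 ± 0.93 from MHCIIlo (adjusted p = 3.35e-06), with no overlap between groups. Without kidney 3 these were -10.21 and -12.03. Without kidney 1, no kidney array measured it, and it was at least 4040-fold lower in kidney than in MHCIIhi and at least 14300-fold lower than in MHCIIlo. Cyp4f16 and Cyp4f18 lay on the same side. Cyp4f18, a leukotriene B4 hydroxylase of leukocytes, was at -2.85, -2.50 and -2.71 in kidney, 1.94, 2.07 and 3.59 in MHCIIhi, and 4.16, 4.49 and 4.63 in MHCIIlo, and Cyp4f16 at -0.53, -0.27 and -0.21 in kidney, 1.5, 2.39 and 3.57 in MHCIIhi, and 3.89, 4.60 and 4.70 in MHCIIlo. Both genes fell in order over MHCIIlo, MHCIIhi and kidney, with no overlap between any pair of groups. Cyp4f15, measured on MHCIIhi 3 alone of the 6 intestinal arrays, was called higher in kidney instead, by 3.13 ± 0.67 from MHCIIhi (adjusted p = 0.00315), which became 2.49 without MHCIIhi 2. Without MHCIIhi 3 it was at least 7.8-fold higher in kidney, and against MHCIIlo at least 3.12-fold higher (adjusted p = 0.000964). With normexp both calls were lost, at 0.45 from MHCIIhi (adjusted p = 0.135) and -0.26 from MHCIIlo (adjusted p = 0.367).

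Cyp4a genes, fatty acid hydroxylases induced through PPAR alpha, did not move as a group. Cyp4a14 was at 0.26, -3.13 and -2.67 in kidney, -6.60, -6.50 and -5.22 in MHCIIhi, and -6.66, -6.29 and -5.70 in MHCIIlo, and was measured on no intestinal array. It was at least 9.18-fold higher in kidney than in MHCIIhi (limma adjusted p = 0.00158) and at least 4.25-fold higher than in MHCIIlo (adjusted p = 0.0011). Without kidney 1 these bounds were 4.42 and 2.05, and without kidney 2 they were 14.3 and 6.63. Both calls were lost with normexp, at 1.09 from MHCIIhi (adjusted p = 0.0818) and 0.21 from MHCIIlo (adjusted p = 0.723). Cyp4a10 was called lower in kidney through its brightest probe, at -0.31, -1.83 and -2.12 in kidney, 1.0, 1.2 and 2.33 in MHCIIhi, and 3.14, 3.42 and 3.56 in MHCIIlo. Its other 2 probes were measured on all 3 kidney arrays and on no intestinal array, and the brighter of them was at 0.69, -2.38 and -2.18 in kidney. The direction of Cyp4a10 between kidney and intestine therefore depended on the probe, with a log2 difference from MHCIIlo of -4.79 through the first and 4.95 through the second. Over all called genes with other measured probes, these had the same sign as the probe used in 11 of 14 cases in kidney minus MHCIIhi. The exceptions were Cyp2d10 and both Cyp4a10 probes. In kidney minus MHCIIlo the sign was the same in 16 of 19, the exceptions being Cyp2d22 and both Cyp4a10 probes. In MHCIIhi minus MHCIIlo it was the same in 11 of 11. The same sign did not always mean a difference. The other Cyp2d10 probe was at -0.02 in kidney minus MHCIIlo, beside -5.19 through the probe used. The other Cyp4a12 probe was at -0.03 in MHCIIhi minus MHCIIlo, beside -1.22.

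**Figure D3:**
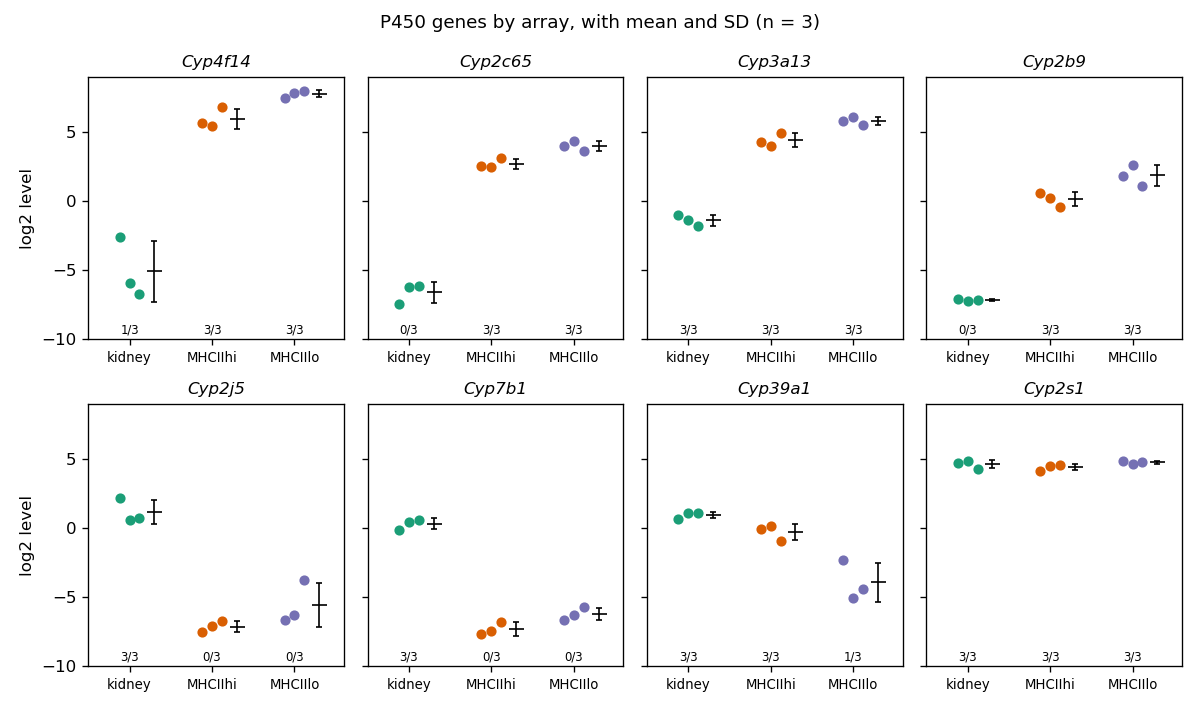
Log2 level (relative to the 75th percentile of the array) of 8 P450 genes on each array (points), with mean and SD (n = 3) to the right of each group and the number of arrays on which the gene was measured under it. Cyp4f14, Cyp2c65, Cyp3a13 and Cyp2b9 are low in kidney, Cyp2j5 and Cyp7b1 are high in kidney, Cyp39a1 is low in MHCIIlo, and Cyp2s1 lies between 4.18 and 4.87 on all arrays.

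The P450 genes with a defined endogenous substrate lay on both sides. Cyp7b1, which hydroxylates oxysterols on the way to bile acids and also acts on steroids, was read at chr3:18264437-18264496 (mm8, minus strand). It was at -0.12, 0.49 and 0.61 in kidney, -7.66, -7.46 and -6.76 in MHCIIhi, and -6.64, -6.27 and -5.72 in MHCIIlo, and no intestinal array measured it. The kidney level was at least 41.3-fold higher than in MHCIIhi (limma adjusted p = 2.10e-07) and at least 19.1-fold higher than in MHCIIlo (adjusted p = 4.40e-07). Cyp27a1, the mitochondrial sterol side-chain hydroxylase, was at -4.98, -4.46 and -4.31 in kidney, -1.74, -2.92 and -1.69 in MHCIIhi, and -0.85, 0.01 and 0.25 in MHCIIlo. Its 3 groups did not overlap, with kidney lower by 2.47 ± 0.40 than MHCIIhi (adjusted p = 0.000619) and by 4.39 ± 0.40 than MHCIIlo (adjusted p = 1.45e-05) on the log2 scale. Cyp46a1, the cholesterol hydroxylase known from neurons, was at -2.50, -1.62 and -2.46 in kidney, -1.46, -1.71 and -1.02 in MHCIIhi, and -0.43, 0.23 and 0.47 in MHCIIlo. It was called lower in kidney minus MHCIIlo (-2.28 ± 0.33, adjusted p = 0.000234) but not in kidney minus MHCIIhi (-0.80 ± 0.33, adjusted p = 0.0594).

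Of the vitamin D enzymes, Cyp24a1, which inactivates the hormone, was at -2.29, -3.36 and -3.36 in kidney, -5.95, -5.60 and -5.21 in MHCIIhi, and -6.64, -4.99 and -5.74 in MHCIIlo. It was measured on no intestinal array and was at least 4.11-fold higher in kidney than in MHCIIhi (limma adjusted p = 0.000925) and at least 1.9-fold higher than in MHCIIlo (adjusted p = 0.000466). With normexp these calls were lost, at 0.10 from MHCIIhi (adjusted p = 0.717) and, in the opposite direction, -0.67 from MHCIIlo (adjusted p = 0.0224). Cyp27b1, the activating hydroxylase of the proximal tubule, was at -3.89, -3.39 and -3.53 in kidney, -2.55, -3.09 and -2.82 in MHCIIhi, and -2.53, -1.60 and -1.56 in MHCIIlo, called lower in kidney minus MHCIIlo (-1.71 ± 0.29, adjusted p = 0.000671). Cyp2r1, which makes the circulating precursor, was at -4.47 and -4.43 on kidney 1 and kidney 2, its spot on kidney 3 having been dropped as an outlier, at -4.22, -3.68 and -4.19 in MHCIIhi, and at -3.76, -5.15 and -4.97 in MHCIIlo, and was not called. Both retinoic acid hydroxylases on the array, which clear that hormone, were called higher in kidney. Cyp26b1 was at 1.24, 1.81 and 3.09 in kidney, -2.53, -4.27 and -3.13 in MHCIIhi, and -1.64, -1.84 and -2.47 in MHCIIlo, with log2 differences of 5.36 ± 0.55 (adjusted p = 3.62e-05) and 4.03 ± 0.55 (adjusted p = 0.000169). Cyp26a1 was at -4.19, -4.12 and -3.63 in kidney, -6.70, -7.22 and -5.05 in MHCIIhi, and -6.65, -6.32 and -5.57 in MHCIIlo, measured on no intestinal array. It was at least 2.09-fold higher in kidney than in MHCIIhi (adjusted p = 0.00388), and the bound against MHCIIlo gave no fold, since it was under 1. With normexp the Cyp26a1 differences turned to -0.31 from MHCIIhi and -1.13 from MHCIIlo.

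Of the steroid enzymes, Cyp17a1, which acts in the gonads on the way to androgens, was at 2.35, 1.72 and 1.41 in kidney, 4.40, 3.99 and 5.67 in MHCIIhi, and 5.39, 6.21 and 6.09 in MHCIIlo. Every intestinal array lay above every kidney array, and kidney was lower by 2.86 ± 0.45 than MHCIIhi (limma adjusted p = 0.000492) and by 4.07 ± 0.45 than MHCIIlo (adjusted p = 4.38e-05). Cyp21a1, another steroid hydroxylase, was at -4.62, -5.07 and -5.73 in kidney, -3.26, -3.63 and -2.37 in MHCIIhi, and -2.49, -1.59 and -1.73 in MHCIIlo, with differences of -2.05 ± 0.41 from MHCIIhi (limma adjusted p = 0.002) and -3.20 ± 0.41 from MHCIIlo (adjusted p = 0.00011). The 5 adrenal cortex markers Star, Nr5a1, Mc2r, Hsd3b1 and Akr1b7, each measured on at least 1 array of every group, summed to 1.46 to 1.76 in kidney, 4.23 to 8.59 in MHCIIhi and 13.4 to 20 in MHCIIlo. Without Akr1b7, the brightest, the sums were 0.642 to 0.76 in kidney, 0.471 to 0.935 in MHCIIhi and 1.02 to 1.51 in MHCIIlo. Akr1b7 and Nr5a1 were called lower in kidney in both comparisons, Mc2r higher (2.38 from MHCIIhi and 1.28 from MHCIIlo), and Star and Hsd3b1 in neither. Their part in the steroid enzyme levels was not tested. Cyp11a1, which makes pregnenolone from cholesterol, was at -6.17, -5.20 and -5.67 in kidney, measured on kidney 2 and kidney 3 alone, -7.58, -7.22 and -6.71 in MHCIIhi, and -6.60, -6.22 and -5.67 in MHCIIlo, and was not tested.

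Within the small intestine, 29 of the 59 tested P450 genes were called lower in MHCIIhi cells, 2 higher and 28 in neither direction. The 4 tested Cyp2d genes, which act on drugs and steroids, were among the largest. Cyp2d26 was at 4.47, 4.44 and 5.78 in MHCIIhi and 6.43, 7.37 and 7.44 in MHCIIlo, lower by 2.18 ± 0.49 (limma adjusted p = 0.00825). Cyp2d10 was at 1.95, 2.13 and 3.53 in MHCIIhi and 4.18, 5.11 and 5.25 in MHCIIlo, lower by 2.31 ± 0.50 (adjusted p = 0.00693). All MHCIIhi arrays of these genes lay below all MHCIIlo arrays, with MHCIIhi 3 the nearest to them. Cyp2d22 was at -1.91, -1.67 and -0.75 in MHCIIhi and 0.23, 0.93 and 0.92 in MHCIIlo, and Cyp2d9 at 1.70, 1.85 and 3.11 in MHCIIhi and 3.67, 4.41 and 4.59 in MHCIIlo. They differed by -2.13 ± 0.34 (adjusted p = 0.00212) and -2.01 ± 0.42 (adjusted p = 0.00642). Among the genes given above, Cyp4f16 differed by -1.91 ± 0.46 (adjusted p = 0.0109), Cyp4f18 by -1.90 ± 0.40 (adjusted p = 0.00638), Cyp27a1 by -1.92 ± 0.40 (adjusted p = 0.00611) and Cyp46a1 by -1.48 ± 0.33 (adjusted p = 0.0076). Cyp1a1, measured on MHCIIlo 1 and on no other intestinal array, was called lower in MHCIIhi (adjusted p = 0.00809) with no fold given, and not called with normexp (-0.96, adjusted p = 0.0029). Of 9 Cyp2c genes 6 were called lower, of 6 Cyp3a genes 2 (Cyp3a13 and Cyp3a25), and of 11 Cyp4 genes 6. The calls of Cyp2c65 (-1.27 ± 0.38, adjusted p = 0.0239) and Cyp3a25 (-1.44 ± 0.49, adjusted p = 0.0383) were lost without MHCIIhi 1, MHCIIhi 2 or MHCIIlo 2, and that of Cyp3a25 also without MHCIIlo 1. Cyp17a1 (-1.21 ± 0.45, adjusted p = 0.0496) and Cyp21a1 (-1.15 ± 0.41, adjusted p = 0.043) lay near the threshold and were not called without MHCIIhi 1, MHCIIhi 2, MHCIIlo 2 or MHCIIlo 3. With normexp, the calls of Cyp2c65, Cyp2c66, Cyp2c40, Cyp17a1 and Cyp21a1 were lost, at -0.96 to -0.89, and with quantile normalization those of Cyp2c65 (-0.92), Cyp3a13 (-0.98) and Cyp17a1 (-0.79). With slide as a random block Cyp2c65, Cyp3a25, Cyp17a1 and Cyp21a1 were not called, nor was Cyp2d10 through its second probe (-1.02, adjusted p = 0.0566).

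Cyp39a1 and Cyp20a1 were called higher in MHCIIhi. Cyp39a1, an oxysterol hydroxylase of the bile acid pathway read at chr17:43213479-43213538 (mm8, plus strand), was at -0.06, 0.16 and -0.90 in MHCIIhi and -2.30, -5.06 and -4.41 in MHCIIlo, where MHCIIlo 1 alone measured it. It was higher by 3.66 ± 0.63 (limma adjusted p = 0.00276), and at least 10.9-fold higher without MHCIIlo 1. In kidney it was at 0.71, 1.11 and 1.11, higher than in MHCIIlo by 4.90 ± 0.63 (adjusted p = 0.000111), at least 25.8-fold higher without MHCIIlo 1, and not called against MHCIIhi (1.25 ± 0.63, adjusted p = 0.111). Cyp39a1 was thus low in MHCIIlo alone of the 3 groups. Cyp20a1, a P450 without a settled substrate, was at -1.41, -0.32 and -0.14 in kidney, -1.77, -2.0 and -2.30 in MHCIIhi, and -2.87, -3.73 and -5.56 in MHCIIlo, measured on 2 of 3 MHCIIlo arrays. Its 2.03 ± 0.62 (adjusted p = 0.0256) between MHCIIhi and MHCIIlo was not called without MHCIIhi 1 (1.91), MHCIIhi 2 (2.02), MHCIIlo 2 (2.19) or MHCIIlo 3 (1.28), was 2.62 without MHCIIlo 1, and was -0.03 with normexp. In kidney minus MHCIIlo it was called at 3.43 ± 0.62 (adjusted p = 0.00096), 2.68 without MHCIIlo 3 and 4.02 without MHCIIlo 1, and not with normexp (0.80, adjusted p = 0.00929).

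On the slide that held both groups, MHCIIhi 3 lay below the MHCIIlo mean in 29 of the 29 genes called lower and below all 3 MHCIIlo arrays in 27 of them, all but Cyp17a1 and Cyp21a1. These genes were called with the same arrays, so the count is not independent of the calls. Of the 28 genes not called, MHCIIhi 3 lay below the MHCIIlo mean in 20 and below all 3 arrays in 14, and of all genes tested it lay below the mean in 10635 of 19473, or 54.6%. For the 29 genes the median difference there was -1.04, beside -0.09 over all genes, and it was -1.68 for MHCIIhi 1 and MHCIIhi 2, on the other slide, beside -0.31 over all genes. With slide as a fixed block, which leaves MHCIIhi 3 against the 3 MHCIIlo arrays, the median difference of the P450 genes was -0.84, beside -0.09 over all genes. No P450 call held in that fit, which rests on 1 MHCIIhi array and called few genes of any kind. With slide as a random block 22 were called lower and 1 higher, beside 1927 and 2586 of all 19473 genes. Without MHCIIhi 2, 19 were called lower and 1 higher, beside 1667 and 2512 of 19611 genes. Without MHCIIhi 3, 33 were called lower, beside 4877 of 19584 genes. Markers of absorptive enterocytes moved with these genes: 12 of 14 were called lower in MHCIIhi (median -1.73) and none higher, and they summed to 1390, 1140 and 2540 in MHCIIhi, against 3740, 5520 and 5400 in MHCIIlo. Markers of dividing cells were called higher in MHCIIhi in 12 of 12 (median 4.31), and those of crypt base stem cells in 6 of 9, goblet cells in 6 of 7 and Paneth cells in 4 of 5. T cell markers were called lower in 6 of 6, fibroblast markers in 4 of 4 tested, and B cell and plasma cell markers in 2 of 6, with sums of 1.07 to 2.12 in MHCIIhi and 21.3 to 35.6 in MHCIIlo. The fibroblast sum was 1.97, 1.36 and 18.1 in MHCIIlo. Of 6 tested macrophage and dendritic cell markers, 3 were called lower and 1 higher. That list summed to 173, 146 and 98.5 in MHCIIhi and to 33.3, 15.6 and 51.2 in MHCIIlo. Ptprc, which encodes CD45, was measured on all 9 arrays despite the CD45 gate. Over all genes tested, 14.9% were called higher and 16.2% lower in this comparison. The part of these cell types in the P450 differences was not tested.

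The differences between kidney arrays exceeded those within the other groups for some genes. Of 53 P450 genes measured on at least 1 kidney array, with a value on all 3, 12 lay over 1.5 log2 units apart between kidney 1 and the mean of kidney 2 and kidney 3. Cyp2e1, the ethanol-inducible P450, was at -6.19 on kidney 1, not measured, and at -1.01 and -1.80 on kidney 2 and kidney 3, and was measured on no intestinal array. Cyp4b1 was at -0.13, 3.34 and 2.89 in kidney, 1.59, 1.72 and 2.52 in MHCIIhi, and 3.27, 3.58 and 3.35 in MHCIIlo, and was called in no comparison. Cyp2c55 was at -6.32 on kidney 1, not measured, and at -4.41 and -4.56 on kidney 2 and kidney 3. In these genes kidney 1 was low, whereas it was high in Cyp4f14, Cyp2a5, Cyp2a4, Cyp4a14, Cyp1a2, Cyp2c44, Cyp4a10, Cyp2c29 and Cyp2j5. The tubule marker Kap, an androgen-responsive gene, was at 8.22 on kidney 1 and at 6.29 and 6.17 on kidney 2 and kidney 3. Leaving out kidney 1 gave 18 genes called higher and 26 lower in kidney minus MHCIIhi, and 17 and 32 in kidney minus MHCIIlo.

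**Figure D4:**
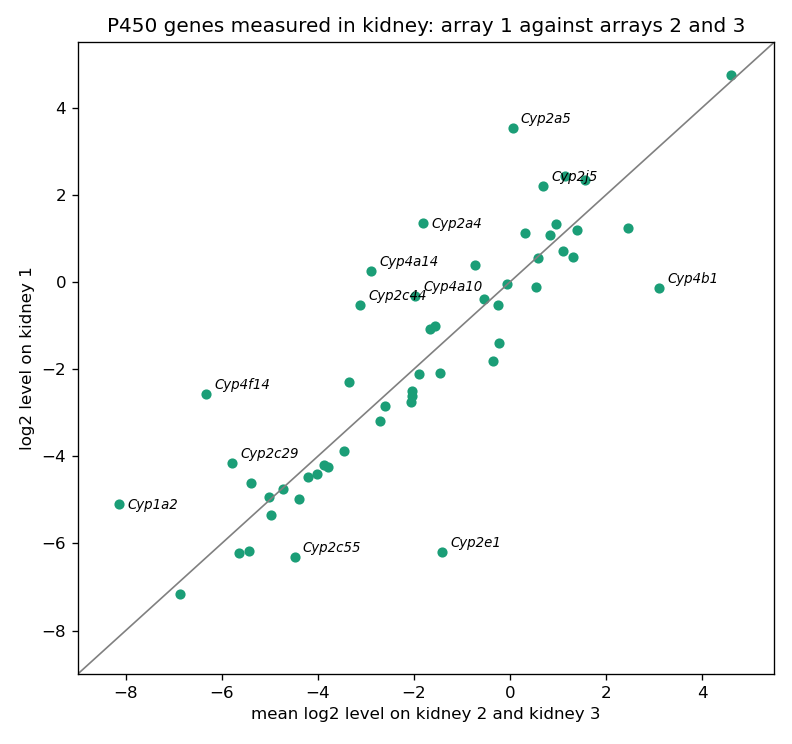
Log2 level of 53 P450 genes on kidney 1 (vertical) against the mean of kidney 2 and kidney 3 (horizontal), with the line of equal levels and the 12 genes over 1.5 apart named. Cyp2e1 and Cyp4b1 lie far below the line, and Cyp4f14, Cyp2a5, Cyp2a4 and Cyp4a14 far above it.

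Of 16 tested receptors and factors known to control P450 genes, 6 were called lower and 3 higher in kidney minus MHCIIhi (median -0.55), beside 23.0% and 25.6% of all genes. In kidney minus MHCIIlo, 8 were called lower and 3 higher (median -0.68), beside 28.0% and 29.7%. Nr1i2, which encodes the xenobiotic receptor PXR that drives Cyp3a genes, averaged -4.79 ± 1.22 over the kidney arrays, 2.33 ± 0.37 in MHCIIhi and 3.27 ± 0.12 in MHCIIlo (SD, 3 arrays each), with kidney differences of -7.12 (limma adjusted p = 4.43e-06) and -8.06 (adjusted p = 1.76e-06). Nr1i3, which encodes CAR, the driver of Cyp2b genes, averaged -2.07 ± 0.38 in kidney, 0.32 ± 0.61 in MHCIIhi and 1.78 ± 0.61 in MHCIIlo, and was called lower in kidney in both comparisons and in MHCIIhi minus MHCIIlo (-1.46, adjusted p = 0.0157). Hnf4a, which encodes an HNF4 protein, averaged -0.42 ± 1.51 in kidney, 3.63 ± 0.09 in MHCIIhi and 3.89 ± 0.23 in MHCIIlo. Its kidney differences were -4.05 (adjusted p = 0.000403) and -4.31 (adjusted p = 0.000218). The kidney arrays were far apart, at 1.32 on kidney 1 and at -1.14 and -1.44 on kidney 2 and kidney 3. The 3 genes called higher in kidney in both comparisons were Ahr, the Ah receptor, Rarb, a retinoic acid receptor, and Nr0b2, a repressor of bile acid synthesis. Ahr averaged 0.41 ± 0.09 in kidney, -0.73 ± 0.28 in MHCIIhi and -1.24 ± 0.15 in MHCIIlo, higher by 1.14 (adjusted p = 0.000643) and 1.65 (adjusted p = 5.21e-05). Rarb averaged 0.39 ± 0.35 in kidney and was measured on no intestinal array, at least 43.3-fold higher than in MHCIIhi (adjusted p = 2.07e-06) and at least 20-fold higher than in MHCIIlo (adjusted p = 3.06e-06).

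Of 9 redox partners tested, 1 was called higher and 2 lower in MHCIIhi minus MHCIIlo, beside 14.9% and 16.2% of all genes. In kidney minus MHCIIhi, 1 was higher and 0 lower, beside 25.6% and 23.0% of all genes. In kidney minus MHCIIlo, 3 were higher (Cyb5r1, Pgrmc1 and Pgrmc2) and 1 lower, beside 29.7% and 28.0%. Por, the reductase that serves the microsomal P450 enzymes, averaged 3.75 ± 0.34 over the kidney arrays, 4.35 ± 0.52 in MHCIIhi and 5.93 ± 0.57 in MHCIIlo (SD, 3 arrays each), lower by 1.58 in MHCIIhi than in MHCIIlo (limma adjusted p = 0.00793) and by 2.18 in kidney than in MHCIIlo (adjusted p = 0.000483). Fdx1, the mitochondrial ferredoxin, was also called lower in MHCIIhi than in MHCIIlo (-1.20, adjusted p = 0.00662), and Cyb5r1, a reductase of cytochrome b5, higher (2.22, adjusted p = 0.000897). Of 11 haem synthesis and breakdown genes, none was called between MHCIIhi and MHCIIlo by limma, although 3 had an adjusted p, and 3 an unadjusted p, below 0.05 with differences under 1. Fech, which inserts the iron, and the haem oxygenases Hmox1 and Hmox2 were called higher in kidney in both comparisons. These were 3 of 11, with 0 lower, beside 25.6% and 29.7% of all genes called higher. Fech averaged 2.31 ± 0.16 in kidney, 0.60 ± 0.10 in MHCIIhi and 0.58 ± 0.29 in MHCIIlo, and Alas1, the rate-limiting enzyme of haem synthesis, 3.72 ± 0.13 in kidney, 3.79 ± 0.25 in MHCIIhi and 4.49 ± 0.19 in MHCIIlo.

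**Figure D5:**
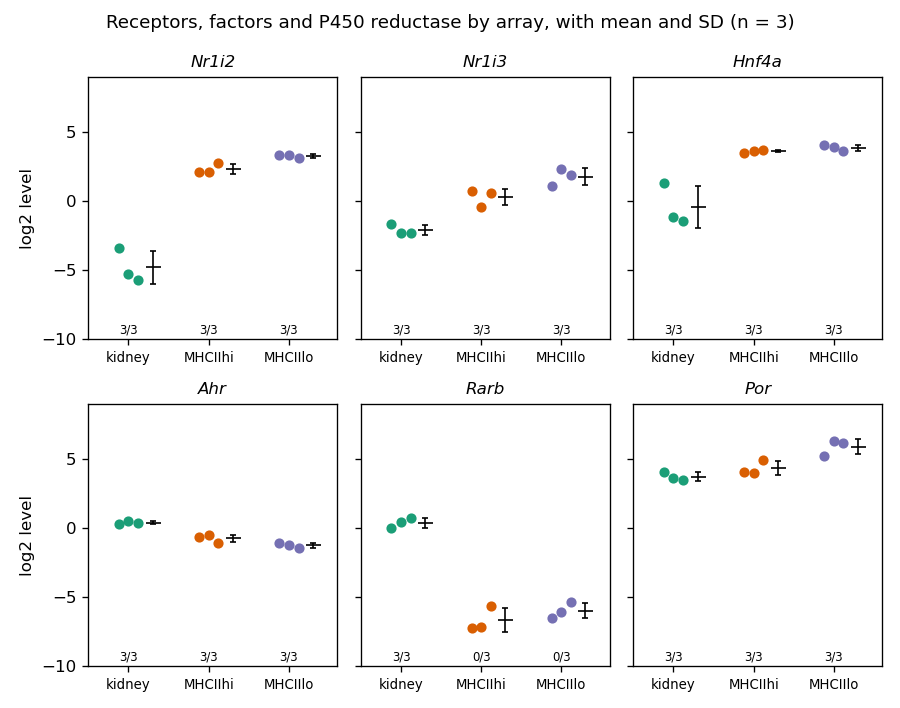
Log2 level (relative to the 75th percentile of the array) of 6 partner genes on each array (points), with mean and SD (n = 3) to the right of each group and the number of arrays on which the gene was measured under it. Nr1i2, Nr1i3 and Hnf4a are lowest in kidney, Ahr and Rarb are highest in kidney, and Por is highest in MHCIIlo.

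Promoters were read for the motif CAAAGTCCA, a sequence bound by HNF4 proteins, because the Cyp2c and Cyp3a genes lay on the intestinal side together with Hnf4a. RefSeq (GRCm38.p6) gave a promoter, from 250 bases before the start to 50 after it, for 54 of the 71 genes. The letters stood on either strand in 7 of the 54, or 13%, and in 150 of 27025 genes, or 0.555%. They stood in 6 of 28 promoters of genes called lower in kidney minus MHCIIlo, in 0 of 12 of genes called higher and in 0 of 7 of genes not called. They also stood in Cyp8b1, which was not tested. All 6 were Cyp2c or Cyp3a genes, whose levels prompted the search. The split by direction is thus not independent of the reason for searching. The 7 genes came from 3 of 25 subfamilies, and paralogues share promoter sequence by descent, so the genes are not independent cases. The windows of 29 bases around the motif, all on the strand of the gene, are shown with the motif in capitals.
Cyp2c65: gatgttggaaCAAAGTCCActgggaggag
Cyp2c40: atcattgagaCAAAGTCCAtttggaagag
Cyp2c70: aggtcaaactCAAAGTCCAaactctgtgt
Cyp3a11: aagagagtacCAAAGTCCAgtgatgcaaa
Cyp3a16: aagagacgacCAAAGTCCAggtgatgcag
Cyp3a41: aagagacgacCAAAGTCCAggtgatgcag
Cyp8b1: agcctctgagCAAAGTCCAagggcaggaa
The windows of Cyp3a16 and Cyp3a41 are identical. Counted from the start of the gene, the motif began at -116 in Cyp2c65, -45 in Cyp2c40, -64 in Cyp2c70, -109 in Cyp3a11, -99 in Cyp3a16, -95 in Cyp3a41 and -67 in Cyp8b1.

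The whole 250 bases before the start are given for Cyp2c65 (chr19:39060756-39061005, plus strand), the Cyp2c gene with the largest difference, and for Cyp3a11 (chr5:145879855-145880104, minus strand), a main drug oxidase of mouse liver, with the motif in capitals.
Cyp2c65: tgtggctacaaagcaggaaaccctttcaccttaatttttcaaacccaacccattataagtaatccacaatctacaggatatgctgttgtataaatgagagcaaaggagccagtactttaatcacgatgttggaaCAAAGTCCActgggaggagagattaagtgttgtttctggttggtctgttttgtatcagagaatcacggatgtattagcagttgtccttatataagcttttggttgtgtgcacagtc
Cyp3a11: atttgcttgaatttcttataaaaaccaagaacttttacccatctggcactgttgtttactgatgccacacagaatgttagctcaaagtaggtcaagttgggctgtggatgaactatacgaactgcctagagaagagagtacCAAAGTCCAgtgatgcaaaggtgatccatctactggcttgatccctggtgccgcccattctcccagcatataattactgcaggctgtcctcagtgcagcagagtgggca
Cyp3a11 was at -4.24, -3.82 and -3.77 in kidney, -0.26, -0.44 and -0.51 in MHCIIhi, and 0.72, 0.40 and -0.48 in MHCIIlo, with every intestinal array above every kidney array, and was chosen for its promoter. Of the other letters searched on both strands, the nuclear receptor motif AGGTCA stood in 15 of the 54 promoters, or 27.8%, against 18.1% of all genes. The TATA box letters TATAAA stood in 26, or 48.1%, against 15.7%. The Ah receptor core TNGCGTG stood in 0, against 5.84%, and these letters were thus not in the windows of Cyp1a1 or Cyp1b1. None of these motifs lies within CAAAGTCCA on either strand. A match of letters is not a binding site, and no binding was measured here.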

How the data were processed

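The authors deposited one scanner file per array, which per its header came from version 10.5.1.1 of Agilent's Feature Extraction. The processed signal in it is a linear intensity after background subtraction, not normalized between arrays, as the deposited files show. A value table from the authors holds the same intensities divided by each array's median. Control and outlier-flagged spots were left out and spots of a probe averaged, giving 41174 probes and 27745 gene names as the array spells them; positions are on mm8 per the file headers. Levels were log2 signals minus the 75th percentile, with each gene read from its probe with the highest mean. The tests used limma 3.58.1 (lmFit, eBayes) in R 4.3.3 with group as factor over 9 arrays, and calls at adjusted p below 0.05 and log2 difference of at least 1. Replicates were separate pools of mice, per the labels. No spot was saturated, and depth does not apply: 3 arrays a group limit the precision.

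The members, role lists and partner lists were chosen with earlier results of these data known. Named genes were up to 8 called genes per direction and comparison, by size, plus all measured sterol, vitamin D, retinoic acid and steroid genes. Cyp2s1, Cyp2c44, Cyp2c55, Cyp2j6, Cyp2j9, Cyp2j11, Cyp2j13, Cyp4a10, Cyp4a12, Cyp4f15, Cyp4b1, Cyp2e1, Cyp3a11 and Cyp3a13 were added after their values were seen. The fit was tested on simulated data. Of the members, RefSeq gives 3 another symbol and holds no entry for the accessions of 5; 6 probes outside the rule now carry P450 symbols. Alternatives were other normalizations, background correction, filters, probes, models, blocks, thresholds and left-out arrays. Figures were drawn with matplotlib 3.10.9 in Python 3.11.15.

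Same-numbered arrays did not deviate together: the correlations of their deviations were 0.19, -0.35 and 0.28 for MHCIIhi and MHCIIlo and between -0.12 and 0.04 for kidney and either intestinal group, so replicate numbers were not used as pairs.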

Additional observations from a re-analysis of the deposited data

How the results depend on the processing

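The number of P450 genes called in each direction stayed within 1.5 times the value reported under several alternatives. These were scaling to the median of genes measured on all arrays, no filter, averaging over probes, a robust trended prior, the arrays of a comparison alone, and no size threshold. It also did so under a filter restricted to the compared groups, RefSeq names and the second brightest probe, which were chosen after seeing the data. The authors' value table gave the same calls by construction, since it holds the same intensities divided by each array's median. In MHCIIhi minus MHCIIlo, the 2 genes called higher became 1 under quantile normalization, normexp or slide as a random block. They became 0 among genes measured on all 9 arrays (also 0 at an unadjusted p below 0.05). The 29 called lower became 4 at a size threshold of 2. No call in either direction held with slide as a fixed block, which leaves 1 MHCIIhi array and called few genes of any kind. In kidney minus MHCIIlo, the 17 called higher became 8 with normexp and 3 among genes measured on all 9 arrays, and the 34 called lower became 21 there. In kidney minus MHCIIhi, that filter left 3 higher and 14 lower. It removes genes that only 1 tissue measured. Leaving out 1 array at a time gave 1 to 3 higher and 19 to 33 lower in MHCIIhi minus MHCIIlo, 15 to 18 and 26 to 28 in kidney minus MHCIIhi, and 16 to 17 and 32 to 34 in kidney minus MHCIIlo. With the replicate number as a block, 2, 16 and 17 were called higher and 29, 26 and 33 lower in MHCIIhi minus MHCIIlo, kidney minus MHCIIhi and kidney minus MHCIIlo.

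Directions turned in 11 of 2672 results of single called genes under an alternative, and in 186 the call was lost without a turn. These results include settings that could not turn a direction, namely the size thresholds and the authors' value table. The median of all genes was -0.24, -0.03 and 0.03 in MHCIIhi minus MHCIIlo, kidney minus MHCIIhi and kidney minus MHCIIlo. It was -0.49, -0.34 and -0.58 with normexp, -0.07, -0.03 and 0.18 with quantile normalization, and -0.24, 0.17 and 0.23 with scaling to the median. With normexp, Cyp20a1 was at -0.03 in MHCIIhi minus MHCIIlo, Cyp26a1 at -0.31 in kidney minus MHCIIhi, and in kidney minus MHCIIlo Cyp26a1 was at -1.13, Cyp24a1 at -0.67, Cyp4a12 at -0.20 and Cyp4f15 at -0.26. By another probe, Cyp4a10 was at 6.02 and 4.95 and Cyp2d10 at 1.0 (kidney minus MHCIIhi), and by the mean of its probes Cyp4a10 was at 1.78 and 0.33. The cause was not tested. Signal over background limits what can be said of the 12 genes not tested.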
